A study of Mus musculus with 6 samples.

Results

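The proteasome and immunoproteasome genes described here are the loci whose symbol begins with Psm, one of the letters a to g, and a number. They were matched by name only, under a rule set with earlier results of these data known. Such a name was carried by 49 of the 23746 loci measured in mouse bone marrow. One of the 49, Psmc3ip, encodes a meiotic recombination cofactor that was named for binding a proteasome ATPase and is no proteasome gene, which leaves 48. All 49 had status OK in every library and all 49 had a mean FPKM (fragments scaled to transcript length and to the library's mapped total) of at least 1, the level needed to enter the tests; Psma8 and Psmb11 lay close to that level.

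RNA was sequenced from Gr1+Mac1+ cells (granulocytes and monocytes, taken with magnetic beads) and from Lin- cells (what remained after depletion down to uncommitted progenitors) of C57BL/6 mice aged 12 weeks. The mice were knockout (KO), heterozygous (Het) or wild type (WT) for Diap1, the formin gene now called Diaph1. Marrow of 4 mice of a genotype made 1 pool, each pool gave 1 library of each fraction, and the 6 groups (KO, Het and WT Gr1+Mac1+, then KO, Het and WT Lin-) thus hold 1 library each. No other allele or agent is named in the labels, and the labels do not say which part of Diap1 was removed or in which cells. Diap1 stood at an FPKM of 4.07 in KO, 34.1 in Het and 57.1 in WT Gr1+Mac1+ cells, and at 6.07 in KO, 24.2 in Het and 36.0 in WT Lin- cells.

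The proteasome is the barrel-shaped protease that degrades ubiquitin-tagged proteins. Its core has outer alpha rings that gate the entry and inner beta rings, in which Psmb5, Psmb6 and Psmb7 encode the cutting subunits of most tissues. In immune cells and under interferon gamma, Psmb8, Psmb9 and Psmb10 take their places, in that order, which gives the immunoproteasome, known for making peptides for MHC class I. A regulatory particle with a base of ATPases and a lid unfolds substrates, and activators, an inhibitor and assembly chaperones act beside it.

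The fractions differed in cell makeup as well as in proteasome genes. Ly6c2, which encodes part of the Gr1 antigen, stood at 1069 to 1267 FPKM in Gr1+Mac1+ cells, against 22.2 to 82.9 FPKM in Lin- cells. Itgam, which encodes Mac1, stood at 293 to 311 FPKM in Gr1+Mac1+ cells, against 0.640 to 16.9 FPKM in Lin- cells; it was left out of the fit because its status was FAIL in the KO Lin- library. Kit, the stem cell factor receptor of progenitors, stood at 14.9 to 15.7 FPKM in Gr1+Mac1+ cells, against 66.4 to 84.7 FPKM in Lin- cells. Of 6 progenitor markers 3 fell in Gr1+Mac1+ cells (Kit, Gata2 and Myb), Cd34 and Flt3 were not called (limma adjusted p of 0.0586 and 0.123), and Mpo rose by a log2 ratio of 2.83. The Het Lin- library stood apart from the others of its fraction: its 9 neutrophil granule markers summed to 8083 FPKM, against 68.3 in KO and 51.1 in WT Lin- cells. The fraction counts and the inducible subunits are therefore given without the Het pool as well. The interval widths of the deposited values imply 8630000 to 11600000 fragments per Gr1+Mac1+ library and 9420000 to 10390000 per Lin- library. For 47 of the members (all but Psma8 and Psmb11) the deposited interval reached a median of 4.89% to 7.06% to either side of the value, depending on the library; it covers counting error only.

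The upstream sequences of 5 of the 6 catalytic genes are shown because these genes moved in opposite directions between the fractions (Psmb7 had no entry in the table of promoters used). RefSeq promoter entries (GRCm38.p6, the assembly of mm10) were matched for 41 of the 49 members. Capitals mark a match to TTCNNNGAA, the letters of a gamma-activated site, in Psmb8, and to TGANNNNGC, the letters of an antioxidant response element, in Psmb9, Psmb5 and Psmb6; no other motif searched overlaps these stretches. The stretches of Psmb10, Psmb5 and Psmb6 hold no annotated exon, and those of Psmb8 and Psmb9 are limited to 30 bases because a GENCODE exon overlaps there. All are written in the direction of the gene.
Psmb8, chr17:34198088-34198117, plus strand: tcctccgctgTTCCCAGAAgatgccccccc
Psmb9, chr17:34187371-34187400, minus strand: ccttgcgcgaTGATGGGGCggggcctcagt
Psmb10, chr8:105938445-105938642, minus strand: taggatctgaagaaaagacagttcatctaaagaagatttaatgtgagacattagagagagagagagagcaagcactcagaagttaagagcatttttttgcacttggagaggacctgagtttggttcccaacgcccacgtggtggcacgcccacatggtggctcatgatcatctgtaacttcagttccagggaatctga
Psmb5, chr14:54618023-54618245, minus strand: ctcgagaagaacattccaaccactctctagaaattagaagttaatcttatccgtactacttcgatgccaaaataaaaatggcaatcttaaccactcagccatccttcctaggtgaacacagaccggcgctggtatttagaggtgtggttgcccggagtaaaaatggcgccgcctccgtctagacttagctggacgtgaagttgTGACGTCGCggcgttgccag
Psmb6, chr11:70525107-70525356, plus strand: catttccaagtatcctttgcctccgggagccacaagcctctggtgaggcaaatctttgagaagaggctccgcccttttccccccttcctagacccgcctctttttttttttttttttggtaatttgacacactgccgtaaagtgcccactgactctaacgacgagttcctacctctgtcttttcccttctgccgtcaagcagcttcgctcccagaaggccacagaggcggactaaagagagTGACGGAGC

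In the 250 bases before the start, on both strands, TTCNNNGAA was found in 2 of 41 members (Psmb8 and Psmg1, 4.88%) and in 7.01% of all 32817 promoter windows. TGANNNNGC was found in 15 of 41 members (36.6%) and in 35.2% of all windows. The letters of an interferon-stimulated element, GAAA and GAAA again after a pair of bases of any kind, was found in 3 of 41 members (Psmb3, Psmd4 and Psmd9, 7.32%) and in 2.97% of all windows; none of the 3 is an inducible subunit. CCAAT was found in 14 of 41 members (34.1%) and in 33.8% of all windows. A match describes the letters only. Psmb9 and Tap1, a subunit of the peptide transporter of class I presentation, start 225 bases apart on opposite strands of chromosome 17.

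Most proteasome genes were lower in Gr1+Mac1+ than in Lin- cells, while the 3 inducible catalytic subunits and the activator gene Psme2 were higher. In the limma fit over 11489 genes (log2(FPKM + 1), pool as a block, Benjamini-Hochberg adjusted p under 0.05), 4 of 49 members were higher, against a background of 30.4% of all genes. Lower were 43 of 49, against a background of 51.6% of all genes, and Psme1 and Psmb11 were not called. In either direction 82% of all genes were called. The median log2 ratio, Gr1+Mac1+ over Lin-, was -0.88 over the members and -0.33 over all genes tested. Without the Het pool 4 members were higher and 41 lower, and without the KO pool 2 were higher (Psmb8 and Psmb9) and 42 lower. Shares of all genes from these fits are not given here. Over the settings of the fit, 2522 to 4340 of all genes were higher and 4655 to 6480 lower. In 4 members all Gr1+Mac1+ libraries lay above all Lin- libraries and in 43 all lay below, which is 8.16% and 87.8% of the members and 31.7% and 54.1% of all genes. The 48 members other than Psmc3ip held 0.459% to 0.461% of the summed FPKM in Gr1+Mac1+ libraries, against 0.826% to 0.852% in Lin- libraries.

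FPKM is relative to the library total, and the 10 most abundant genes took 25.1% to 27.8% of the summed FPKM in Gr1+Mac1+ libraries, against 8.72% to 10.5% in Lin- libraries. When the libraries were rescaled by their median ratio, the median of all genes moved to -0.05, 5 members were higher (background 37.8%) and 35 lower (background 40.5%). Over the members the median log2 ratio was then -0.56. In RNA from mixed cells, fewer cells of a type and less RNA per cell cannot be told apart. Only 2 residual degrees of freedom remain, and they hold any difference between genotypes in the fraction ratio as well as noise.

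**Figure D1:**
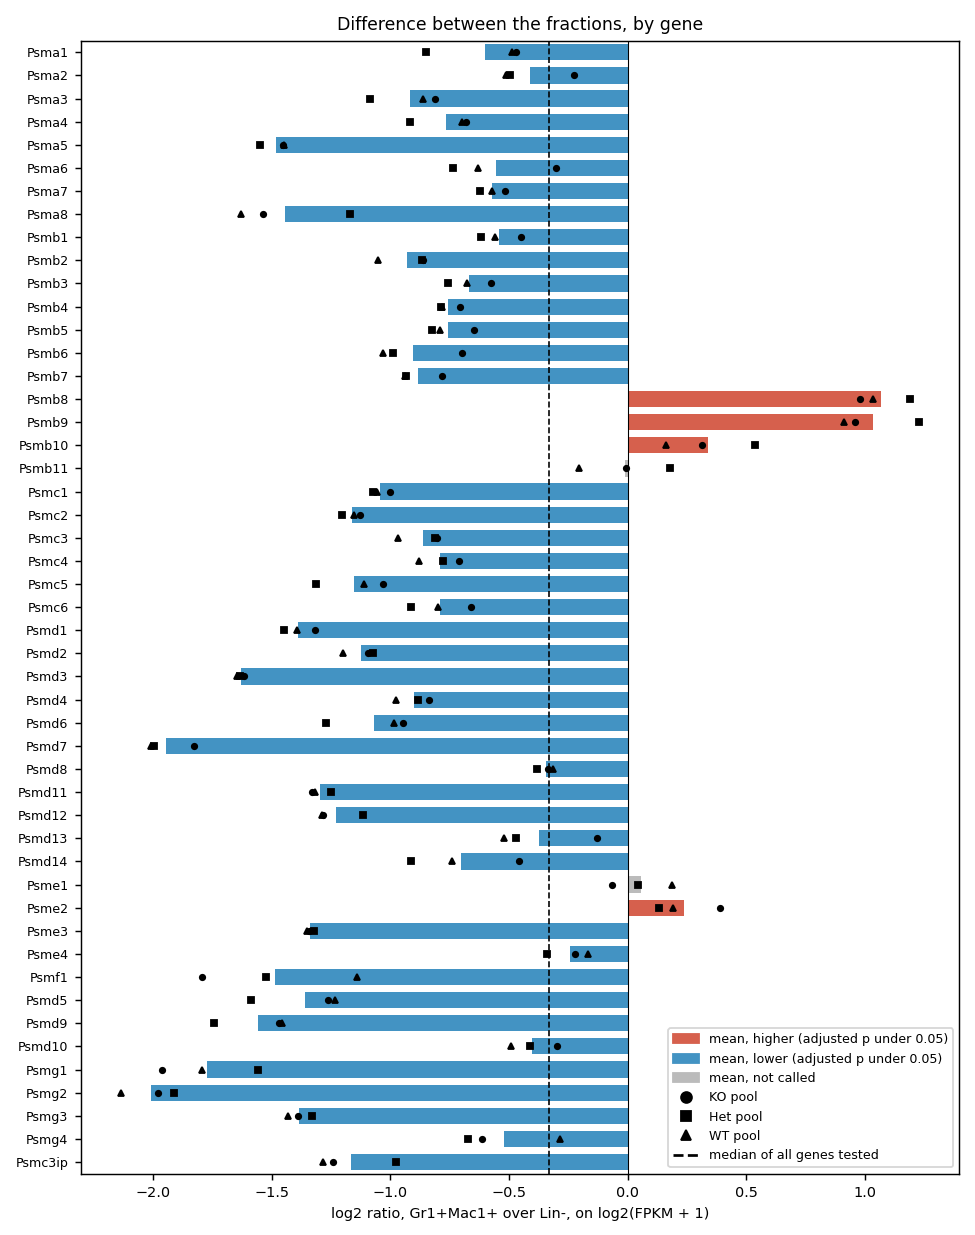
Log2 ratio, Gr1+Mac1+ over Lin-, on the log2(FPKM + 1) scale for the 49 members, grouped by role; bars are means of the 3 pools (red higher, blue lower, grey not called), symbols are the KO, Het and WT pools, and the vertical lines mark 0 and the median of all genes tested, -0.33. Psmb8, Psmb9, Psmb10 and Psme2 lie to the right of 0 in all 3 pools, while the alpha ring, ATPase, regulatory and chaperone genes lie to the left.

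Psmb8, which encodes the inducible chymotrypsin-like subunit (chromosome 17, 34198195 to 34201454, mm10), stood at 94.1 FPKM in KO, 98.0 in Het and 88.4 in WT Gr1+Mac1+ cells, against 47.3 in KO, 42.4 in Het and 42.7 in WT Lin- cells. Every Gr1+Mac1+ library lay above every Lin- library. The means were 93.5 ± 4.83 FPKM and 44.1 ± 2.77 FPKM (SD, n = 3 each). Psmb8 rose by a log2 ratio of 1.07 (SE 0.07, limma adjusted p = 0.000221), and it did so in 3 of 3 pools.

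Psmb9, the inducible subunit that takes the place of Psmb6 (chromosome 17, 34182099 to 34187330), stood at 100.2 FPKM in KO, 98.0 in Het and 95.3 in WT Gr1+Mac1+ cells, against 51.2 in KO, 41.3 in Het and 50.2 in WT Lin- cells. The fractions did not overlap, and the lowest value was that of the Het Lin- library. Psmb9 rose by a log2 ratio of 1.03 (SE 0.09, limma adjusted p = 0.000426). Without the Het pool the log2 ratio was 1.005 for Psmb8 and 0.93 for Psmb9, with limma adjusted p of 0.000346 and 0.000409.

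Psmb10, the inducible partner of Psmb7 (chromosome 8, 105935728 to 105938392), had a smaller ratio. It stood at 38.9 FPKM in KO, 42.3 in Het and 41.3 in WT Gr1+Mac1+ cells, against 31.1 in KO, 28.8 in Het and 36.8 in WT Lin- cells. The lowest Gr1+Mac1+ library still lay above the highest Lin- library. The log2 ratio was 0.34 (SE 0.09, limma adjusted p = 0.0234). Without the KO pool Psmb10 had a log2 ratio of 0.35 and lost its call (limma adjusted p = 0.0728), and without the Het pool it had 0.24 and kept it (limma adjusted p = 0.0491).

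The 3 constitutive catalytic genes went the other way. Psmb5 (chromosome 14, 54614120 to 54617995) stood at 89.4 FPKM in KO, 74.7 in Het and 77.2 in WT Gr1+Mac1+ cells, against 140.7 in KO, 133.1 in Het and 134.4 in WT Lin- cells. Psmb6 (chromosome 11, 70525357 to 70527858) stood at 78.5 FPKM in KO, 67.0 in Het and 69.6 in WT Gr1+Mac1+ cells, against 127.9 in KO, 133.8 in Het and 143.2 in WT Lin- cells. Psmb7 (chromosome 2, 38588046 to 38643906) stood at 112.0 FPKM in KO, 106.6 in Het and 108.6 in WT Gr1+Mac1+ cells, against 193.3 in KO, 204.3 in Het and 208.9 in WT Lin- cells. In none of the 3 did the fractions overlap. The log2 ratios were -0.76 (Psmb5), -0.91 (Psmb6) and -0.88 (Psmb7), with limma adjusted p of 0.000483, 0.000716 and 0.000300. All 3 stayed lower after rescaling (background 40.5% of all genes).

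FPKM is per length, so levels of different genes were set side by side within a library. Biases particular to a gene, such as those of annotation or shared fragments, were not checked. The share of Psmb8, Psmb9 and Psmb10 in the summed FPKM of the 6 catalytic subunits was 45.5% in KO, 48.98% in Het and 46.8% in WT Gr1+Mac1+ cells, against 21.9% in KO, 19.3% in Het and 21.0% in WT Lin- cells. The mean share was 47.1 ± 1.78% in Gr1+Mac1+ cells and 20.7 ± 1.34% in Lin- cells (SD, n = 3 each), and the counting SE per library was 0.498 to 0.744 percentage points. This share does not move with a rescaling of the library. No test was made of it.

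The same was seen within each pair. Psmb8 stood at 1.17 ± 0.131 times the FPKM of Psmb5 in Gr1+Mac1+ cells and at 0.324 ± 0.0107 times in Lin- cells (SD, n = 3 each). Psmb9 stood at 1.37 ± 0.0941 times the FPKM of Psmb6 in Gr1+Mac1+ cells and at 0.353 ± 0.0458 times in Lin- cells. Psmb10 stayed below Psmb7 in both, at 0.375 ± 0.0250 times in Gr1+Mac1+ cells and 0.159 ± 0.0176 times in Lin- cells. Inducible genes thus exceeded their constitutive partners in 2 of 3 pairs in every Gr1+Mac1+ library and in no pair in any Lin- library. In the KO Gr1+Mac1+ library, however, the deposited intervals of Psmb8 (88.4 to 99.8 FPKM) and Psmb5 (82.4 to 96.3 FPKM) overlapped.

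**Figure D2:**
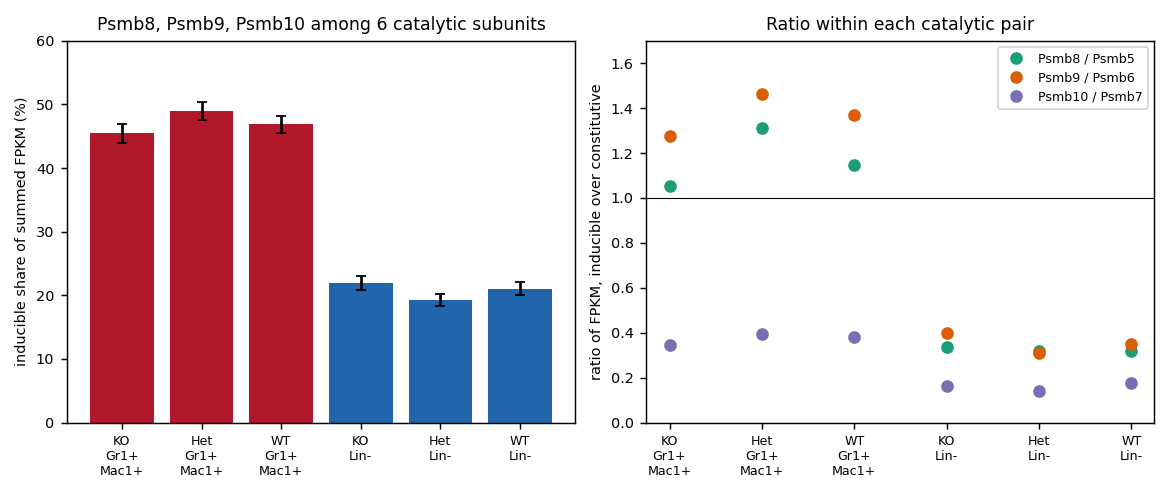
Left, the inducible share of the summed FPKM of the 6 catalytic subunits (percent) in each library, with error bars of 2 counting SE on each side; right, the ratio of FPKM, inducible over constitutive, within each pair in each library. The Gr1+Mac1+ libraries lie at 45.5% to 48.98% and the Lin- libraries at 19.3% to 21.9%, and the Psmb10 to Psmb7 ratio stays under 0.40 throughout.

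Psmb11, the catalytic subunit of the thymus cortex, was close to the limit of the filter in both fractions. It stood at 1.09 FPKM in KO, 1.55 in Het and 1.145 in WT Gr1+Mac1+ cells, against 1.10 in KO, 1.26 in Het and 1.47 in WT Lin- cells. The fractions overlapped, and the log2 ratio of -0.01 (limma adjusted p = 0.938) turned to 0.17 after rescaling without being called.

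As deposited, the structural core was lower throughout in Gr1+Mac1+ cells, where 51.6% of all genes were lower. All 7 alpha ring genes fell, with a median log2 ratio of -0.60, and so did all 4 non-catalytic beta genes, with a median of -0.71. After rescaling, 4 of 7 and 4 of 4 were called lower (background 40.5%), with medians of -0.28 and -0.39. Psma5 fell most among them, to 55.5 FPKM in KO, 51.0 in Het and 59.3 in WT Gr1+Mac1+ cells, against 153.6 in KO, 151.1 in Het and 163.5 in WT Lin- cells. Its log2 ratio was -1.48 (SE 0.06, limma adjusted p = 0.000109). Psma7 was the most abundant alpha gene, at 170.2 FPKM in KO, 166.2 in Het and 180.3 in WT Gr1+Mac1+ cells, against 244.3 in KO, 256.2 in Het and 268.2 in WT Lin- cells. Psma2 had a log2 ratio of -0.41 that was called as deposited (limma adjusted p = 0.00857) but not after rescaling (-0.09, limma adjusted p = 0.386) or without the WT pool (limma adjusted p = 0.0537).

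Among the non-catalytic beta genes Psmb3 was the most abundant, at 170.0 FPKM in KO, 152.0 in Het and 171.2 in WT Gr1+Mac1+ cells, against 254.0 in KO, 257.6 in Het and 274.1 in WT Lin- cells. Psmb2 fell most, to 78.6 FPKM in KO, 78.0 in Het and 74.2 in WT Gr1+Mac1+ cells, against 143.8 in KO, 143.1 in Het and 155.2 in WT Lin- cells. The log2 ratio of Psmb2 was -0.93 (limma adjusted p = 0.000307), and in neither gene did the fractions overlap. Set against the median of these 11 core genes (-0.67), the log2 ratios of Psmb8, Psmb9 and Psmb10 were higher by 1.74, 1.702 and 1.01. Psma8, an alpha subunit of testis, was at 1.01 FPKM in KO, 1.13 in Het and 0.871 in WT Gr1+Mac1+ cells, against 4.82 in KO, 3.799 in Het and 4.79 in WT Lin- cells. It fell by a log2 ratio of -1.45 (limma adjusted p = 0.000520).

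**Figure D3:**
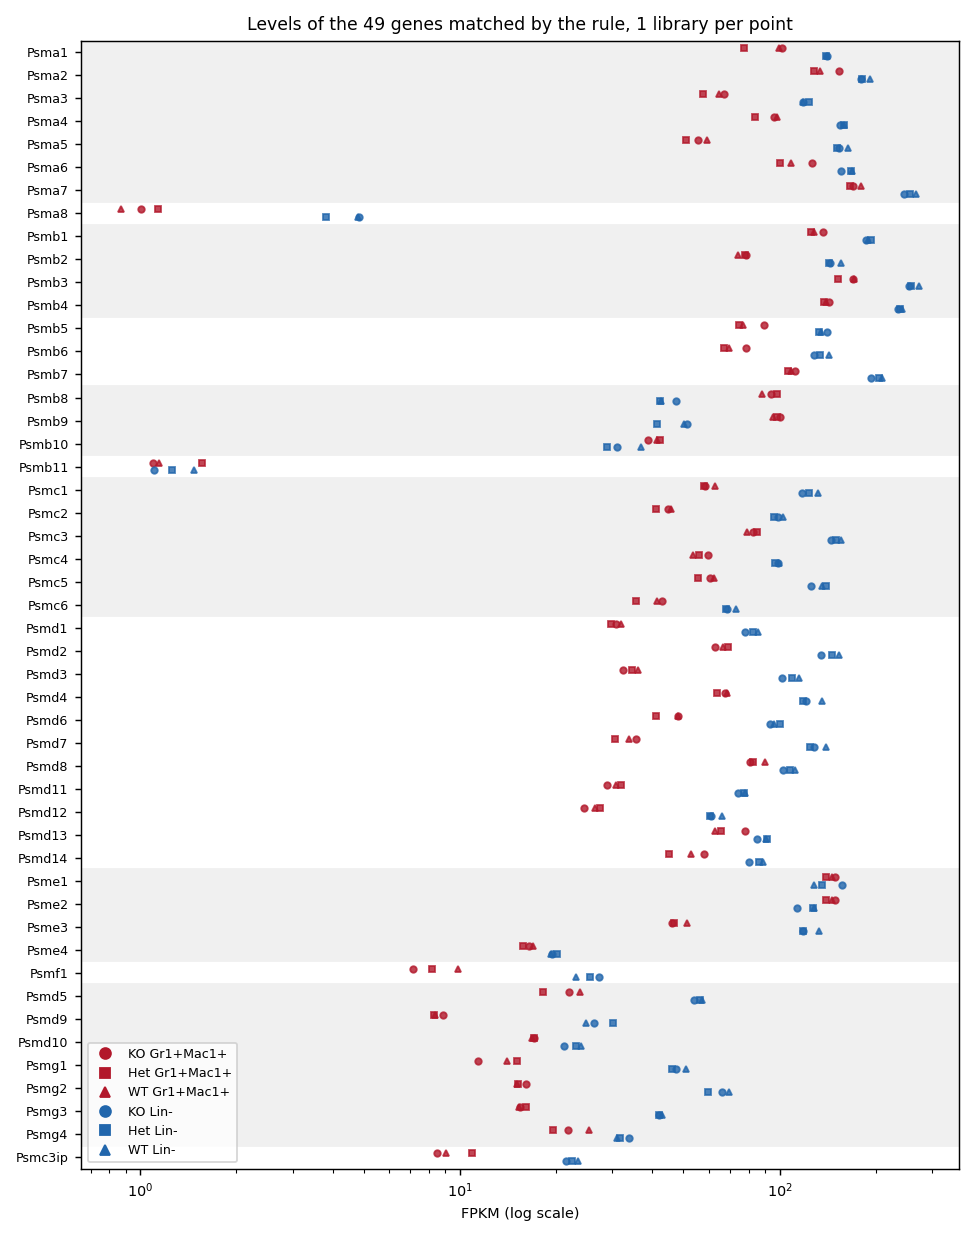
FPKM of each member in each library on a log axis, Gr1+Mac1+ and Lin- libraries in different colours and the genes grouped by role. Lin- points lie above Gr1+Mac1+ points for most genes, and the order is turned round for Psmb8, Psmb9, Psmb10 and Psme2. Psma8 and Psmb11 lie far below the rest.

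The Psmc genes and the non-ATPase Psmd genes of the regulatory particle were lower as well; Shfm1, a lid subunit with another kind of name, rose and is described with the other genes of the pathway. All 6 ATPases (Psmc1 to Psmc6, the motor of the base) fell, with log2 ratios of -0.79 to -1.16 and a median of -0.95. The background was 51.6% of all genes lower. After rescaling all 6 were called too (background 40.5%). Psmc2 had the largest fall, to 44.8 FPKM in KO, 41.2 in Het and 45.6 in WT Gr1+Mac1+ cells, against 99.1 in KO, 96.1 in Het and 102.8 in WT Lin- cells. The log2 ratio of Psmc2 was -1.16 (SE 0.06, limma adjusted p = 0.000125). Psmc3 was the most abundant, at 82.8 FPKM in KO, 85.3 in Het and 78.9 in WT Gr1+Mac1+ cells, against 145.4 in KO, 150.4 in Het and 155.5 in WT Lin- cells. Psmc6 was the least abundant, at 42.9 FPKM in KO, 35.5 in Het and 41.5 in WT Gr1+Mac1+ cells, against 68.5 in KO, 67.8 in Het and 72.9 in WT Lin- cells.

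All 11 non-ATPase subunits with Psmd names fell (background 51.6% of all genes), with a median of -1.12. After rescaling 9 of 11 were called (background 40.5%). Psmd7, a lid subunit that pairs with the deubiquitinase Psmd14, fell to 35.5 FPKM in KO, 30.5 in Het and 33.9 in WT Gr1+Mac1+ cells, against 128.5 in KO, 124.4 in Het and 139.4 in WT Lin- cells. Its log2 ratio was -1.94 (SE 0.07, limma adjusted p = 0.000109). Psmd14 itself had -0.70 (SE 0.10, limma adjusted p = 0.00287). Psmd3, another lid subunit, fell by a log2 ratio of -1.63. In the Lin- fraction the most abundant of the 11 was the base subunit Psmd2, at 62.7 FPKM in KO, 68.9 in Het and 66.4 in WT Gr1+Mac1+ cells, against 135.1 in KO, 146.1 in Het and 153.6 in WT Lin- cells. In both fractions the least abundant was the lid subunit Psmd12, at 24.4 FPKM in KO, 27.5 in Het and 26.4 in WT Gr1+Mac1+ cells, against 60.8 in KO, 60.7 in Het and 66.0 in WT Lin- cells. The most abundant in Gr1+Mac1+ cells was the lid subunit Psmd8, at 80.8 FPKM in KO, 82.7 in Het and 90.0 in WT Gr1+Mac1+ cells, against 102.3 in KO, 108.1 in Het and 112.1 in WT Lin- cells. Psmd8 and Psmd13 had the smallest ratios, -0.34 and -0.37, which were called as deposited (limma adjusted p of 0.00400 and 0.0211) but not after rescaling, where they stood at -0.02 and -0.05. Psmd13 also lost its call without the WT pool (limma adjusted p = 0.105) and without the Het pool (0.0562).

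The 7 assembly chaperones, which help build the particle and are not part of it, all fell (background 51.6% of all genes), with a median of -1.38. After rescaling 5 of 7 were called (background 40.5%). Psmg2 had the largest fall of all members. It stood at 16.1 FPKM in KO, 15.2 in Het and 15.1 in WT Gr1+Mac1+ cells, against 66.3 in KO, 59.9 in Het and 69.7 in WT Lin- cells. The log2 ratio was -2.01 (SE 0.07, limma adjusted p = 0.000109). Its partner Psmg1 in alpha ring assembly had -1.77, whereas the other pair, Psmg3 and Psmg4, had -1.38 and -0.52. Psmg4 stood at 21.7 FPKM in KO, 19.6 in Het and 25.3 in WT Gr1+Mac1+ cells, against 33.7 in KO, 31.7 in Het and 31.0 in WT Lin- cells. Of the base chaperones, Psmd9 had -1.56, Psmd5 -1.36 and Psmd10 -0.40. Psmd9 stood at 8.84 FPKM in KO, 8.30 in Het and 8.38 in WT Gr1+Mac1+ cells, against 26.3 in KO, 30.2 in Het and 24.7 in WT Lin- cells. Psmg4 and Psmd10 were not called after rescaling.

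The activators moved in different ways. Psme3, the nuclear activator, fell to 46.0 FPKM in KO, 46.8 in Het and 51.4 in WT Gr1+Mac1+ cells, against 118.2 in KO, 118.3 in Het and 132.8 in WT Lin- cells. Its log2 ratio was -1.34 (SE 0.05, limma adjusted p = 0.000109). Psme1 and Psme2 form the activator that interferon gamma induces. Their listed levels were almost equal in Gr1+Mac1+ cells (Psme1 minus Psme2 of 0.054 FPKM in KO, 0.154 in Het and -0.023 in WT). The cause was not tested, so the separate level of each is uncertain. Psme2 stood at 149.2 FPKM in KO, 139.5 in Het and 146.2 in WT Gr1+Mac1+ cells, against 113.8 in KO, 127.4 in Het and 128.2 in WT Lin- cells. The fractions did not overlap, and the log2 ratio was 0.24 (SE 0.08, limma adjusted p = 0.0394). It lost the call without the WT pool (0.26, limma adjusted p = 0.110) and without the KO pool (0.16, limma adjusted p = 0.175).

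Psme1 stood at 149.3 FPKM in KO, 139.7 in Het and 146.2 in WT Gr1+Mac1+ cells, against 156.4 in KO, 135.4 in Het and 128.4 in WT Lin- cells. The fractions overlapped, since the KO Lin- library was the highest of all 6. The log2 ratio was 0.05 (limma adjusted p = 0.518) as deposited and 0.38 (limma adjusted p = 0.00758) after rescaling. Psme1 stood at 3.02 ± 0.204 times the FPKM of Psme3 in Gr1+Mac1+ cells and at 1.14 ± 0.178 times in Lin- cells (SD, n = 3 each), a ratio that does not move with rescaling and was not tested.

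Psme4, which encodes a large activator linked to histone turnover, stood at 16.5 FPKM in KO, 15.8 in Het and 16.99 in WT Gr1+Mac1+ cells, against 19.4 in KO, 20.2 in Het and 19.2 in WT Lin- cells. Its log2 ratio was -0.24 (limma adjusted p = 0.0262) as deposited, but 0.07 (limma adjusted p = 0.407) after rescaling, which turns the direction. It also lost the call when any 1 pool was left out (limma adjusted p of 0.0713 without WT, 0.0839 without Het and 0.0884 without KO). Psmf1, named for inhibiting the proteasome in the test tube, stood at 7.15 FPKM in KO, 8.20 in Het and 9.89 in WT Gr1+Mac1+ cells, against 27.2 in KO, 25.5 in Het and 23.0 in WT Lin- cells. It fell by a log2 ratio of -1.49 (SE 0.14, limma adjusted p = 0.000641). Psmc3ip, the meiotic gene, had -1.17.

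Other genes of the pathway, on lists chosen with earlier results of these data known, are given for the same contrast. Of 7 proteasome genes with other names, 1 rose (background 30.4% of all genes) and 6 fell (background 51.6%). After rescaling 1 was called higher (background 37.8%) and 4 lower (background 40.5%). Shfm1, a small lid subunit, rose to 513.4 FPKM in KO, 442.0 in Het and 475.6 in WT Gr1+Mac1+ cells, against 207.6 in KO, 233.3 in Het and 192.5 in WT Lin- cells. Its log2 ratio was 1.17 (SE 0.10, limma adjusted p = 0.000517), opposite in sign to the Psmd lid genes named above. Pomp, the chaperone that matures the core, had -0.39, which was not called after rescaling, the ubiquitin receptor Adrm1 had -0.91, and Usp14, a deubiquitinase bound to the base, had -1.18.

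A list of 17 genes held ubiquitin genes, the activating enzyme, shuttling and extracting factors, the transcription factors Nfe2l1 and Nfe2l2, and the protease Ddi2 and deglycosylase Ngly1 that process Nfe2l1. Of the 17, 2 rose (background 30.4%), 12 fell (background 51.6%) and 3 were not called. After rescaling 3 rose (background 37.8%) and 10 fell (background 40.5%). Among those that rose was Ubb, which encodes polyubiquitin (log2 ratio 0.59). Rps27a, which encodes ubiquitin joined to a ribosomal protein, had -0.64. The largest falls were those of the shuttling factors Ubqln4 (-1.74) and Rad23b (-1.27). Nfe2l1, known to raise proteasome genes when the protease is inhibited, had -0.13 and was not called (limma adjusted p = 0.162).

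Of 21 tested genes of class I antigen processing and the interferon gamma response, 13 rose (background 30.4%) and 2 fell (background 51.6%). The other 6 were not called. After rescaling 16 rose (background 37.8%) and 1 fell (background 40.5%). The median log2 ratio of the 21 as deposited was 0.53. Irf1, a transcription factor of the interferon response, rose to 41.7 to 47.5 FPKM in Gr1+Mac1+ cells, against 6.64 to 8.26 FPKM in Lin- cells, a log2 ratio of 2.36 (limma adjusted p = 0.000109). Cd74, the invariant chain of class II, had the highest ratio (4.12), and the chaperone Canx (-1.31) and the peptidase Erap1 (-0.36, not called after rescaling) were the 2 that fell. The class I heavy chain H2-D1 had 1.40 and its light chain B2m 0.53. Tap1, the neighbour of Psmb9, stood at 43.6 FPKM in KO, 43.6 in Het and 39.0 in WT Gr1+Mac1+ cells, against 40.0 in KO, 36.8 in Het and 39.2 in WT Lin- cells. Its fractions overlapped and its log2 ratio was 0.12 (limma adjusted p = 0.193) as deposited, though 0.44 (limma adjusted p = 0.00487) after rescaling. In the same libraries Psmb9 had 1.03 as deposited and 1.35 after rescaling.

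**Figure D4:**
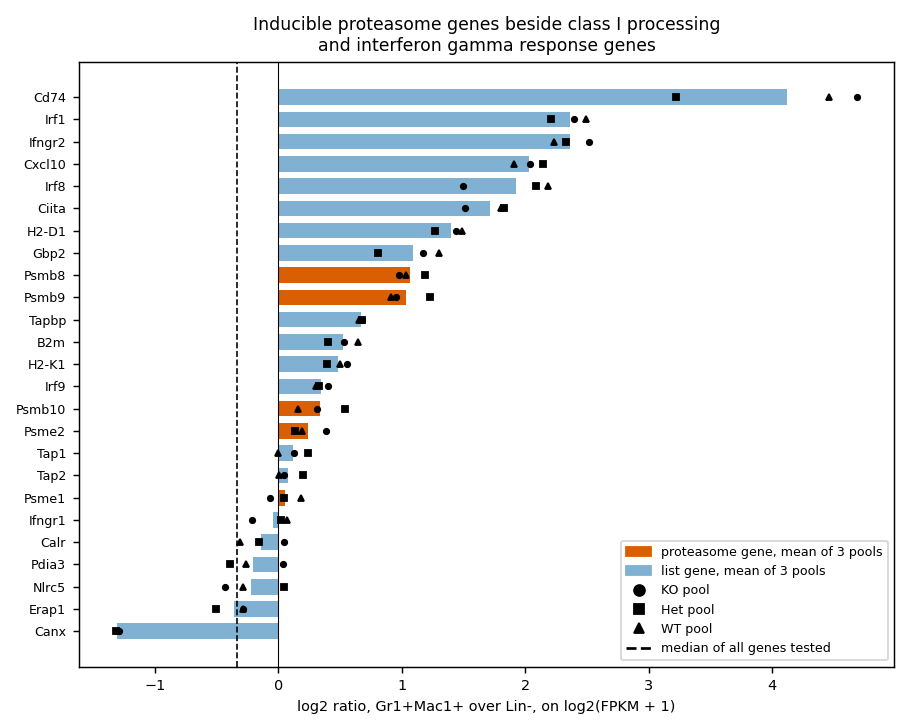
Log2 ratio, Gr1+Mac1+ over Lin-, on the log2(FPKM + 1) scale for the inducible subunits, Psme1, Psme2 and genes of class I processing and the interferon gamma response. Irf1 lies at 2.36, Psmb8 and Psmb9 lie near 1, and Tap1 and Tap2 lie near 0.

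Markers of other cell types moved with the fraction too, in a contrast where 30.4% of all genes were called higher and 51.6% lower. All 7 B lineage markers rose, and summed to 257 to 299 FPKM in Gr1+Mac1+ libraries, against 10.8 to 25.0 FPKM in Lin- libraries. All 6 monocyte and macrophage markers rose (461 to 470 FPKM, against 28.0 to 55.5 FPKM), as did 4 of 5 tested dendritic markers (439 to 568 FPKM, against 35.3 to 61.0 FPKM) and 5 of 7 T and NK markers (169 to 195 FPKM, against 33.5 to 41.6 FPKM). Most of the T and NK sum was Nkg7 (129 to 151 FPKM, against 26.8 to 31.8 FPKM), and the T cell genes Cd3e and Cd8a were not called. Most of the dendritic sum in Gr1+Mac1+ libraries was Cd74 (322 to 419 FPKM), and Flt3 was not called. Of 6 erythroid markers 2 rose (Slc4a1 and Alas2), 2 fell and 2 were not called, and they summed to 263 to 422 FPKM in Gr1+Mac1+ libraries, against 348 to 386 FPKM in Lin- libraries. The 2 that fell were Klf1, an erythroid transcription factor, at 12.2 FPKM in Gr1+Mac1+ and 113 FPKM in Lin- cells on average (log2 ratio -3.18), and the transferrin receptor Tfrc, at 42.2 and 127 FPKM (-1.58). All 3 megakaryocyte markers fell (33.7 to 44.2 FPKM, against 188 to 374 FPKM). Of 3 tested stromal markers the collagen genes Col1a1 and Col1a2 fell and Pecam1 rose. In Lin- libraries Pax5, the defining B lineage factor, was at 0.241 to 0.732 FPKM, and no marker of these lists was at 0 in any library. Immune cells of these kinds are known to carry immunoproteasome genes, and the part of any of these cells' RNA in the members' ratios was not tested.

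Between genotypes no member moved by the size rule. That rule asks for a 2-fold difference on the log2(FPKM + 1) scale, a level of 5 FPKM or more in whichever library is higher and deposited intervals that lie apart; with 1 library a group there is no test and no replicate check. In KO against WT Gr1+Mac1+ cells 0 of 49 members passed in either direction, against a background of 0.0444% of all genes higher and 0.0976% lower. In KO against WT Lin- cells 0 of 49 passed, against 0.137% higher and 0.0365% lower. For Het over WT in the Gr1+Mac1+ fraction 0 of 49 passed, against 0.0355% higher and 0.0976% lower, and in Het against WT Lin- cells 0 of 49 passed, against 1.3% higher and 0.0639% lower. At these backgrounds less than 1 member would be counted, so the zeros say little about the members. With 1.5-fold in place of 2-fold, the count was 0 as well. The share of all genes at 1.5-fold is not given here, so nothing is read from that zero either. No gene of the 3 pathway lists passed in any of these comparisons. KO and Het of a fraction are set against the same WT library.

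**Figure D5:**
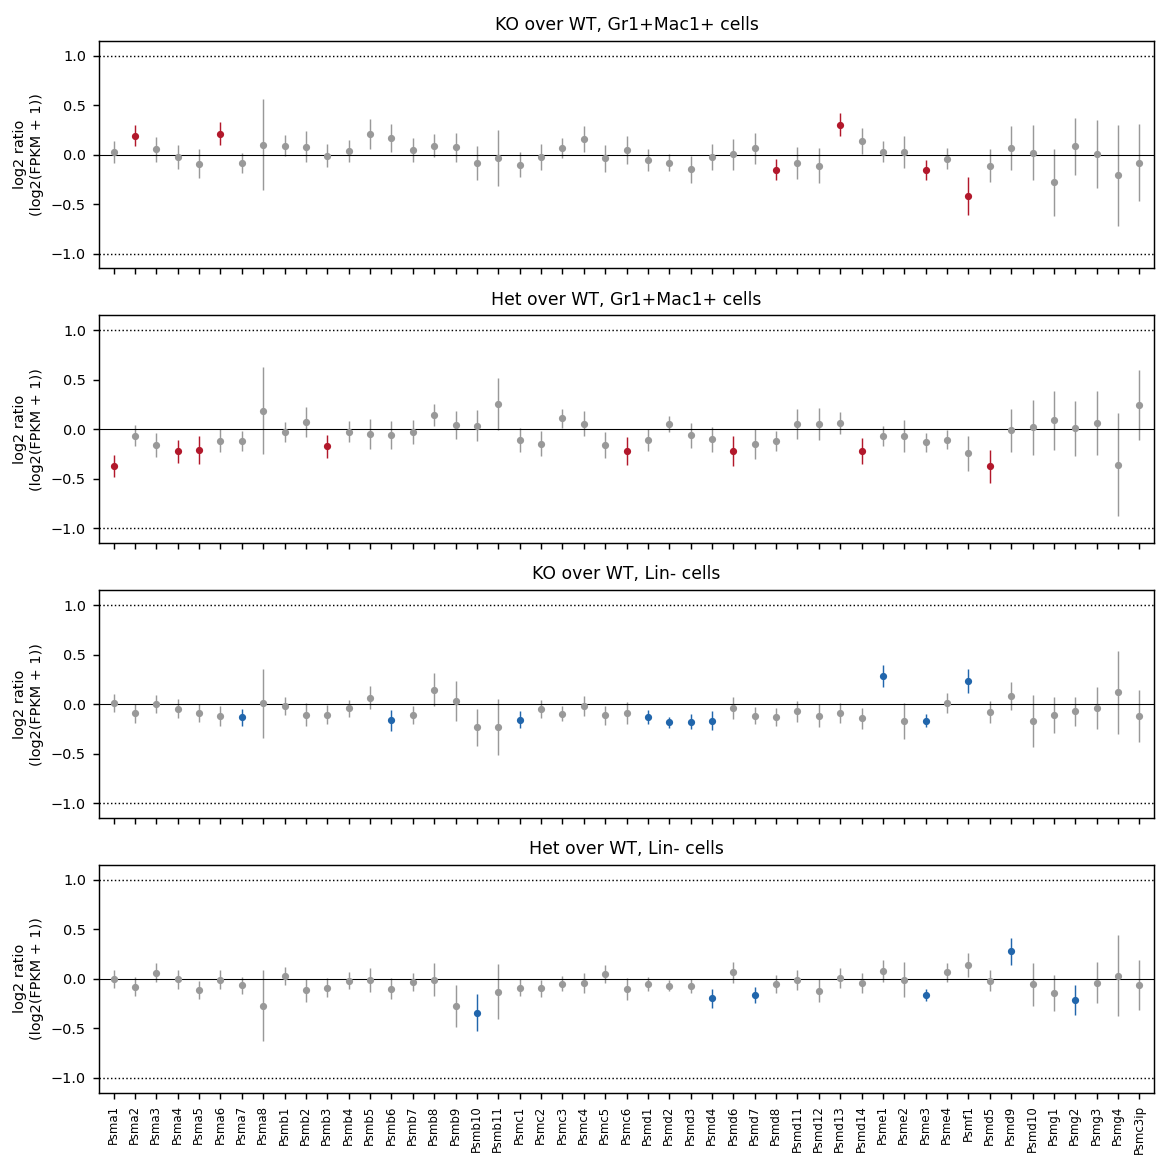
Log2 ratio of each member in KO over WT and in Het over WT, in Gr1+Mac1+ and in Lin- cells, on the log2(FPKM + 1) scale, with bars of 2 counting SE on each side; coloured points have deposited intervals that lie apart and dotted lines mark 2-fold. All points lie well inside the dotted lines, from -0.42 (Psmf1, KO over WT, Gr1+Mac1+) to 0.30 (Psmd13, in the same comparison).

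In KO against WT Gr1+Mac1+ cells the median log2 ratio was 0.01 over the members and 0.01 over all genes. Intervals lay apart in 3 members that were higher (background 5.25%) and 3 that were lower (background 5.57%). Psmd13 had 77.8 FPKM in KO and 62.9 in WT Gr1+Mac1+ cells (log2 ratio 0.30, counting SE 0.06), and the alpha genes Psma6 and Psma2 had 0.21 and 0.19. Psmb5 had 0.21 with overlapping intervals. The lower ones were Psmf1 (-0.42, counting SE 0.10), Psme3 (-0.16) and Psmd8 (-0.15), while Psmg1 (11.4 FPKM in KO and 14.0 in WT, -0.28) and Psmg4 (-0.21) had overlapping intervals. The 3 inducible subunits stood at 0.09 (Psmb8), 0.07 (Psmb9) and -0.08 (Psmb10), all with overlapping intervals. The 6 erythroid markers summed to 263 FPKM in KO and 422 in WT Gr1+Mac1+ cells, with 1 of 6 lower by the size rule, and their part in these ratios was not tested.

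In KO against WT Lin- cells the median was -0.09 over the members and 0.00 over all genes. Below 0 were 38 of 49 members and 5384 of all 10952 genes. Intervals lay apart in 2 higher (background 6.16%) and 8 lower members (background 7.38%), which is 4.08% and 16.3% of the members. All 11 non-ATPase subunits with Psmd names and all 6 ATPases were below 0, with medians of -0.13 and -0.09. Psmd2, a large base subunit that binds ubiquitin-like domains, had 135.1 FPKM in KO and 153.6 in WT Lin- cells (log2 ratio -0.18, counting SE 0.03). The 2 higher ones were Psme1, at 156.4 FPKM in KO and 128.4 in WT Lin- cells (0.28, counting SE 0.05), and Psmf1 (0.23, counting SE 0.06). Psme2, the partner of Psme1, went the other way, at 113.8 FPKM in KO and 128.2 in WT Lin- cells (-0.17, overlapping intervals). Psme1 minus Psme2 was 42.5 FPKM in KO but 0.248 FPKM in WT Lin- cells. The cause was not tested, so the separate ratios of these genes are uncertain. Psmb10 (-0.24) and Psmb11 (-0.23) had the lowest ratios and Psmb8 the third highest (0.15), all with overlapping intervals. The 3 megakaryocyte markers summed to 188 FPKM in KO and 285 in WT Lin- cells, with none past the size rule; their part was not tested. These ratios are small, and each library is 1 pool, so they cannot be told apart from differences between pools.

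In Het against WT Gr1+Mac1+ cells the median was -0.06 over the members and 0.00 over all genes. Intervals lay apart in no higher member (background 8.27%) and in 8 lower ones (background 8.49%; 16.3% of the members). All 7 alpha ring genes were below 0. Psma1 had 77.3 FPKM in Het and 99.99 in WT Gr1+Mac1+ cells (log2 ratio -0.37, counting SE 0.06), while the KO library of that fraction, at 101.8, was close to WT. The base chaperone Psmd5 had 18.2 FPKM in Het and 23.8 in WT Gr1+Mac1+ cells (-0.37, counting SE 0.08). Psmg4 (-0.36), Psmb11 (0.25), Psmc3ip (0.25) and Psma8 (0.19) had overlapping intervals. The 6 erythroid markers summed to 301 FPKM in Het and 422 in WT Gr1+Mac1+ cells, with none past the size rule, and the 4 stromal markers to 37.4 FPKM in Het and 24.9 in WT, with 1 of 3 above the filter higher by the rule. The part of either in these ratios was not tested.

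In Het against WT Lin- cells the median was -0.05 over the members and 0.00 over all genes. Below 0 were 39 of 49 members and 5480 of all 10956 genes. This count and that of KO rest on the same WT Lin- library, so they are not independent. Intervals lay apart in 1 higher (background 8.41%) and 5 lower members (background 6.2%). Psmb10 had 28.8 FPKM in Het and 36.8 in WT Lin- cells (log2 ratio -0.34, counting SE 0.09), and KO Lin- cells lay between, at 31.1. Psmd9, a base chaperone, was the higher one, at 30.2 FPKM in Het and 24.7 in WT Lin- cells (0.28, counting SE 0.07). Psmb9 (-0.28), Psma8 (-0.27), Psmf1 (0.14) and Psme1 (0.08) had overlapping intervals. In this comparison all 9 neutrophil granule markers were higher by the size rule, and the 4 stromal markers summed to 538 FPKM in Het and 266 in WT Lin- cells, with 1 of 3 measured above the filter higher by the rule. The part of either in these ratios was not tested.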

How the data were processed

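RNA was sequenced from 6 libraries, 1 per genotype and fraction. The deposited values are FPKM per locus, each beside its bounds and a quality status, per the file headers. TopHat2 2.0.7, Cufflinks 2.0.2 and mm10 are named in the submitters' processing notes; the sources used here do not give the annotation, the strand setting or the handling of fragments that fit several copies, so genes with near-identical copies or overlapping neighbours are uncertain. The files hold no counts; interval widths gave fragment numbers that were whole within 0.05 for 63.0% to 64.1% of genes with fewer than 50 implied fragments, too few for a count test. The intervals cover counting error only.

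The members and lists were chosen with earlier results of these data known. Members were matched by symbol, and all of them are accounted for; values in every library are given for the catalytic, tissue-specific, activator and inhibitor genes and, in each class, for those with the highest level or the largest ratio. The 3 members with the largest ratios in each direction of a genotype comparison are named, as are the list genes with the largest ratios between fractions. The fraction fit used log2(FPKM + 1) in limma 3.58.1 under R 4.3.3, with an intensity trend. It covered 11489 genes with status OK throughout and mean FPKM of at least 1, with Benjamini-Hochberg adjustment over all of them. The steps were tested on simulated data with independent noise and no difference between pools, so that test does not cover such differences. The pool was a block because, per the labels' protocols, the same mice gave both of its fractions; deviations of the fractions of a pool correlated across genes by -0.01 (KO), -0.06 (Het) and 0.10 (WT). Genotypes were compared by size only. A counting SE is the deposited half-width divided by 2, carried to the log2 scale. Alternatives were pseudocounts of 0.1 and 5, a level of 5 or no level, rescaling by the median ratio, no block, no trend, each pool left out, 1.5-fold and 3-fold, and no interval criterion. Tables and plots were made in Python 3.11.15 (pandas 2.3.3, numpy 2.4.6, matplotlib 3.10.9). Starts of loci were read as 0-based and are printed 1-based. Ly6g and Paaf1 were not analysed here. Values of some genes of the pathway lists are not reported here.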

Additional observations from a re-analysis of the deposited data

Results flagged for a closer look

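Psmf1, the inhibitor gene, was the 1 member whose KO and WT intervals lay apart in opposite directions in the 2 fractions. Its log2 ratio, KO over WT, was -0.419 in Gr1+Mac1+ cells (7.15 FPKM in KO, 9.89 in WT) and 0.233 in Lin- cells (27.2 FPKM in KO, 23.0 in WT). The Het libraries stood at 8.20 FPKM in Gr1+Mac1+ cells and 25.5 FPKM in Lin- cells, between KO and WT in both. Each group is 1 library, so the difference between the fractions was not tested.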

How the results depend on the processing

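Between fractions, all 49 members kept direction and call with pseudocounts of 0.1 and 5 and with no replicate block (4 higher, 43 lower), and 47 of 47 tested did so at a mean FPKM of at least 5. Psme2 lost its call without the level filter (limma adjusted p = 0.0526) and without the trend (0.0556). After rescaling, the median of the members was -0.56, 8 members lost their call (Psma1, Psma2, Psma6, Psmd8, Psmd10, Psmd13, Psmg4 and Psme4), Psme1 gained one, and the signs of Psme4 (0.0673) and Psmb11 (0.17) were reversed. With 1 pool left out, 2 to 4 members were higher (2 without the KO pool) and 40 to 42 lower. Over the settings of this fit, 2522 to 4340 of all genes were higher and 4655 to 6480 lower. The sign turned without the WT pool for Psme1 and Psmb11. Their ratios ran from -0.0106 to 0.116 and from -0.106 to 0.0853, none of them called. The inducible share, from lower bounds of inducible with upper bounds of constitutive genes to the converse, was 41.9% to 49.03% in KO, 45.6% to 52.3% in Het and 43.7% to 50.02% in WT Gr1+Mac1+ cells, and 19.4% to 24.5% in KO, 17.01% to 21.6% in Het and 18.8% to 23.4% in WT Lin- cells. Between genotypes the count of members was 0 under every alternative run. For all genes, the counts higher and lower ran from 3 to 44 and 2 to 87 (KO, Gr1+Mac1+), 3 to 57 and 2 to 48 (KO, Lin-), 2 to 40 and 3 to 54 (Het, Gr1+Mac1+) and 86 to 240 and 4 to 46 (Het, Lin-). Depth limits Psma8 (deposited interval up to 48.5% to either side), Psmb11 and Psmg4 most.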

Other observations

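Psme1 and Psme2, which lie on chromosome 14 at 55578494 to 55581527 and 55587440 to 55591101, were listed at almost the same level in 4 of 6 libraries. Psme1 minus Psme2 was 0.054 FPKM in KO, 0.154 in Het and -0.023 in WT Gr1+Mac1+ cells, and 42.5 FPKM in KO, 7.92 in Het and 0.248 in WT Lin- cells. The cause was not tested. The widest gap was in the KO Lin- library, in which Psme1 had the highest KO over WT ratio of the members.

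Lin- libraries also held RNA of other kinds of cell. The stromal collagen genes Col1a1 and Col1a2 averaged 7.18 and 5.72 FPKM in Gr1+Mac1+ cells, against 205 and 166 FPKM in Lin- cells, whereas the endothelial genes Pecam1 and Cdh5 averaged 16.6 and 0.796 FPKM in Gr1+Mac1+ cells, against 8.77 and 0.178 FPKM in Lin- cells. The platelet gene Pf4 averaged 22.4 FPKM in Gr1+Mac1+ cells, against 229 FPKM in Lin- cells. Mpo, a gene of early granulocytes, averaged 1463 FPKM in Gr1+Mac1+ cells and 205 FPKM in Lin- cells. Their part in the proteasome levels was not tested.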
